A study of Homo sapiens with 18 samples.

Results

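The bromodomain inhibitors OTX015 and JQ1 were set against each other in acute myeloid leukaemia cells by CAGE (cap analysis of gene expression), an assay in which sequenced tags mark where capped RNAs start. Of the 18 libraries in the study, 12 entered the comparison, chosen by their labels: 6 from cells given OTX015 and 6 from cells given JQ1. They comprised 3 OTX015 and 3 JQ1 libraries of the line AML2 and 3 OTX015 and 3 JQ1 libraries of the line AML3, so that both lines added to 1 estimate of the difference. The other 6 libraries came from these lines with vehicle (DMSO), 3 in each, and are given beside the compounds as the untreated level. The column names write the lines as OCI-AML2 and OCI-AML3, established lines from patients with acute myeloid leukaemia, and as background the second carries a mutated nucleophosmin gene. The labels state no genotype, dose or treatment time, so whether the compounds were matched in dose and time is not known here. Nor do they say whether libraries of a group came from separate cultures, and the p-values measure only the spread between these libraries.

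Both compounds are thienotriazolodiazepines that fill the acetyl-lysine pocket of the BET bromodomains, the part by which BRD2, BRD3 and their relatives bind acetylated histones. Their side chains differ: an ester with a tert-butyl group in JQ1, an amide with a hydroxyphenyl group in OTX015, which is also called birabresib. BET proteins help recruit P-TEFb, the kinase that releases paused RNA polymerase II. HEXIM1 holds P-TEFb inactive, and its own transcription rises when BET proteins are displaced, which makes it a common marker of BET inhibition. In leukaemia cells BET inhibitors are best known for lowering MYC. The 2 compounds make 1 pair, so 1 comparison of compounds was made.

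The gene table held 303883 to 1215251 tags per OTX015 library, 378794 to 1290954 per JQ1 library and 822070 to 2163106 per vehicle library. Compound libraries numbered 3 were the shallowest, with a mean of 426361 gene tags, against 937690 for those numbered 1 and 1039711 for those numbered 2. Levels are given as CPM, tag counts divided by library sizes that were scaled by TMM, an edgeR step that evens out differences in RNA composition. The nuclear RNA MALAT1 made up 2.079% to 6.753% of gene tags with OTX015, 1.412% to 6.293% with JQ1 and 0.102% to 0.291% with vehicle. Of 10 myeloid markers 9 had tags, and MPO had no entry in the gene table. The summed level of the 9 was 560 to 1874 CPM with OTX015, 547 to 2196 CPM with JQ1 and 1545 to 2265 CPM with vehicle. T-cell, erythroid and epithelial markers had no entry either, and among B-cell markers CD79A alone was listed, at no more than 2.11 CPM. Of 4 stromal and endothelial markers COL1A1 and CDH5 had no entry. The sum of that list was 4.31 to 183 CPM with OTX015, 7.22 to 203 CPM with JQ1 and 10.6 to 35.4 CPM with vehicle. A missing entry is not a measured level of 0. Deviations from the group means correlated positively between same-numbered OTX015 and JQ1 libraries of a line. They did so as strongly between libraries numbered 1 and 2, so the data set apart the libraries numbered 3 but not pair 1 from pair 2. Differences, OTX015 minus JQ1 in log2 units, are given without and with these 6 pairs as a block, called the unpaired and the paired fit.

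The start regions of 4 genes are shown because HIST1H3C led the lower genes of the paired fit, ZSWIM8, NQO1 and HEXIM1 stood among the higher ones, and each stayed called when most single pairs were left out. Each region runs from 150 bases before to 30 bases after the gene start in RefSeq (GRCh38.p14), on the gene's own strand. HIST1H3C (RefSeq symbol H3C3) lies at chr6:26045234-26045413 on the plus strand, HEXIM1 at chr17:45148325-45148504 on the plus strand, NQO1 at chr16:69726531-69726710 on the minus strand and ZSWIM8 at chr10:73785456-73785635 on the plus strand.
HIST1H3C: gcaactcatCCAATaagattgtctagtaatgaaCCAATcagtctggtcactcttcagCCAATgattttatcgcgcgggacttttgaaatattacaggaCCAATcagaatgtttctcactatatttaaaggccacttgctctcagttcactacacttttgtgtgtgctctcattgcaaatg
HEXIM1: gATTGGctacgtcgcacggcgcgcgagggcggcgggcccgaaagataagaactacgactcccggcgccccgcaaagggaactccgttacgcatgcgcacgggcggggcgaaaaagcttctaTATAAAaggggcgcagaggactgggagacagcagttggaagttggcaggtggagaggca
NQO1: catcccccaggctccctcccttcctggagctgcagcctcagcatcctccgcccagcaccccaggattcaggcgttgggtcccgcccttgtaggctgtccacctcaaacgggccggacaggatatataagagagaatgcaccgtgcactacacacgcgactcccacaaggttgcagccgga
ZSWIM8: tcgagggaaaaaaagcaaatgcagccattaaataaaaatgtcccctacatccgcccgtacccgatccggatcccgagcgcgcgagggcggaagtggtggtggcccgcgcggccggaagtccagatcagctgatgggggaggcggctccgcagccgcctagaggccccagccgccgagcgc
Capitals mark matches, on either strand, to the CCAAT box, the TATAAA box, the core of the antioxidant response element (TGACNNNGC) and the E box bound by MYC (CACGTG). Among 35116 RefSeq start regions of this length, 25.4% hold the first motif, 7.28% the second, 8.84% the third and 5.19% the fourth. HIST1H3C holds 4 copies of the CCAAT box, and HEXIM1 holds 1 on the opposite strand and 1 TATAAA box. These letters were not found in the NQO1 and ZSWIM8 windows, and a match is a description, not a bound site.

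No gene separated the compounds in the unpaired fit. By edgeR's quasi-likelihood test with Benjamini-Hochberg adjustment, 0 of 9415 genes (0%) passed an adjusted p under 0.05, while 171 were higher and 146 lower with OTX015 at an unadjusted p under 0.05. Where nothing differs, a share near 0.05 of genes would have such an unadjusted p, and these counts are a smaller share. The same holds for the unadjusted counts given below for promoters, enhancers and the line difference. DESeq2 called 1 gene, HIST1H3C, lower with OTX015 (adjusted p = 0.000425). The 95% interval of the difference lay within 2-fold for 8300 genes (88.2%) in the unpaired fit and for 8766 (93.1%) in the paired fit. The median absolute difference was 0.153 with a median SE of 0.229, and 16 genes had an estimate of 2-fold or more.

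With the libraries paired, 21 genes were higher (0.223%) and 34 lower (0.361%) with OTX015. The higher genes included HEXIM1, the oxidoreductase gene NQO1, the ubiquitin ligase receptor gene ZSWIM8 and the nuclear long RNA NEAT1. The lower ones included histone genes, proteases of neutrophil granules and signalling adaptors of myeloid cells. Differences ran from 0.44 to 1.05 among the higher genes and from −1.47 to −0.44 among the lower ones. Of the higher genes 12 were higher in 6 of 6 pairs, and of the lower genes 22 were lower in 6 of 6 pairs. The paired fit picked these genes by these same pairs. Genes named for a small p in the unpaired fit were picked by these libraries as well. Pair counts and statements on overlap of the groups, here and below, therefore describe the picked genes and are no support for a difference. The share of all genes tested whose groups separate is not given here. The number called moved with the pairs kept, to 10, 87 and 15 genes without AML2 pair 1, 2 or 3, and to 47, 4 and 18 without AML3 pair 1, 2 or 3. HIST1H3C and IFITM2 stayed called whichever pair was left out, DHRS9, NQO1 and ZSWIM8 in 5 of 6 cases, and AIF1, AZU1, ELANE and HEXIM1 in 4 of 6. Of the 55 genes, 39 stayed called in 2 or fewer of the 6 cases, and SRGN and TUBE1 in 0. Genes named below because they passed the paired fit were chosen after their values were seen.

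**Figure D1:**
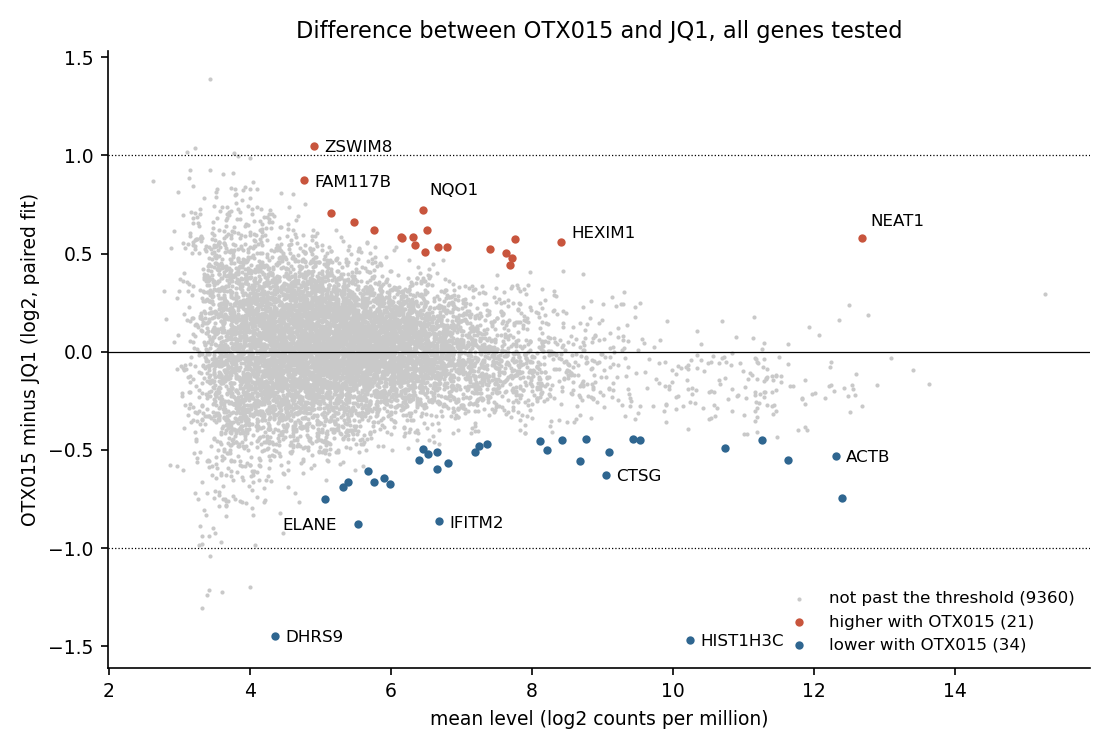
Difference between OTX015 and JQ1 (log2, vertical) against mean level (log2 CPM, horizontal) for the 9415 genes tested, paired fit; dotted lines mark 2-fold. Red points (21) were higher and blue points (34) lower with OTX015 at an adjusted p under 0.05, and HIST1H3C at −1.47 and DHRS9 at −1.45 lie lowest among them.

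Among known response genes of BET inhibition, HEXIM1 was higher with OTX015 in the paired fit. In AML2 it had 205, 230 and 526 CPM with OTX015 against 110, 114 and 228 CPM with JQ1, and 10.8 to 26.8 CPM with vehicle. In AML3 it had 283, 269 and 678 CPM with OTX015 against 248, 249 and 637 CPM with JQ1, and 8.65 to 19.9 CPM with vehicle. OTX015 was higher in 6 of 6 pairs, although the compounds' ranges overlap in both lines since libraries numbered 3 were high in both groups. The difference was 0.60 (SE 0.34, 95% interval −0.10 to 1.3) in the unpaired fit, which was not called, and 0.56 (SE 0.12, adjusted p = 0.00818) in the paired fit. It was 1.10 in AML2 and 0.13 in AML3, and the test of a line difference was not passed (adjusted p = 1). Against vehicle in AML2, HEXIM1 differed by 4.25 ± 0.51 (SE) with OTX015 and 3.16 ± 0.51 (SE) with JQ1. In AML3 it differed from vehicle by 4.69 ± 0.52 (SE) with OTX015 and 4.57 ± 0.51 (SE) with JQ1. Such responses share their vehicle libraries and are set side by side only.

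SAT1, which acetylates polyamines, was also higher with OTX015 in the paired fit, by 0.58 (SE 0.12, adjusted p = 0.0108). Its levels in AML2 were 241, 322 and 558 CPM with OTX015 against 104, 190 and 284 CPM with JQ1. In AML3 they were 89.6, 122 and 144 CPM with OTX015 against 109, 90.9 and 146 CPM with JQ1, which overlap, and 4 of 6 pairs were higher. The other 9 of 11 tested response markers were not called in either fit, and the median of the 11 was 0.05, against 0.01 over all genes tested. In the paired fit 0.223% of all genes tested were called higher.

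MYC, the growth-driving transcription factor, did not separate the compounds. In AML2 it had 50.2, 41.6 and 59 CPM with OTX015 against 52.5, 62.6 and 84.7 CPM with JQ1, and 406 to 464 CPM with vehicle. In AML3 MYC had 68.8, 99.7 and 60.3 CPM with OTX015 against 65.8, 65.5 and 77.6 CPM with JQ1, and 182 to 209 CPM with vehicle. The compounds overlap in both lines, well below vehicle, and their difference in MYC was −0.10 (SE 0.18, 95% interval −0.48 to 0.27). SERPINI1, a serine protease inhibitor gene used as a marker of BET inhibition, had 18.7 to 33.7 CPM with OTX015, 19.4 to 28.5 CPM with JQ1 and 0 to 4.21 CPM with vehicle over both lines. Its difference was 0.14 (SE 0.19, 95% interval −0.25 to 0.54).

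Of 26 tested genes of BET proteins and the P-TEFb machinery, 2 were higher and 0 lower in the paired fit, HEXIM1 and CDK13. Over all genes tested, 0.223% were higher and 0.361% lower in that fit. CDK13 encodes a kinase of elongating RNA polymerase II, and its levels in AML2 were 45.5, 33.9 and 73.7 CPM with OTX015 against 36.5, 27.3 and 37 CPM with JQ1. In AML3 they were 62.3, 59.1 and 81.8 CPM with OTX015 against 37.3, 31.7 and 61.3 CPM with JQ1. The ranges overlap in both lines, yet 6 of 6 pairs were higher with OTX015, by 0.62 (SE 0.15, adjusted p = 0.0297). The drug targets BRD2 and BRD3 were not called. BRD2 had 33.9 to 80 CPM with OTX015, 31.7 to 84.8 CPM with JQ1 and 23.6 to 29.4 CPM with vehicle, a difference between the compounds of 0.07 (SE 0.24, 95% interval −0.43 to 0.56). BRD3 differed by −0.08 (SE 0.17, 95% interval −0.42 to 0.27).

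HOXA9, MEIS1, MYB, CDK6, BCL2 and NPM1, regulators of self-renewal, growth or survival in leukaemia, were not called in either fit. HOXA9, a homeobox factor kept high in leukaemia with mutated NPM1, had 271 to 446 CPM with OTX015, 258 to 471 CPM with JQ1 and 65.2 to 131 CPM with vehicle. HOXA9 differed by −0.02 (SE 0.19, 95% interval −0.42 to 0.39). Its partner MEIS1 differed by 0.25 (SE 0.15, 95% interval −0.05 to 0.55), with 5 of 6 pairs higher with OTX015. The haematopoietic transcription factor gene MYB differed by 0.05 (SE 0.20, 95% interval −0.37 to 0.47), and the cell cycle kinase gene CDK6 by 0.06 (SE 0.35, 95% interval −0.67 to 0.79). The survival gene BCL2 differed by 0.22 (SE 0.28, 95% interval −0.36 to 0.80), and NPM1, the nucleophosmin gene, differed by −0.14 (SE 0.26, 95% interval −0.68 to 0.40). Each of these intervals includes 0 and lies inside 2-fold, which bounds the gap and does not show that the compounds act alike. Of 11 tested HOX and MEIS genes none was called, and their median was 0.02. Over all genes tested, 0.223% were called higher and 0.361% lower in the paired fit. CD14, ITGAM and MPO were not among the genes tested, and MPO had no entry in the gene table.

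**Figure D2:**
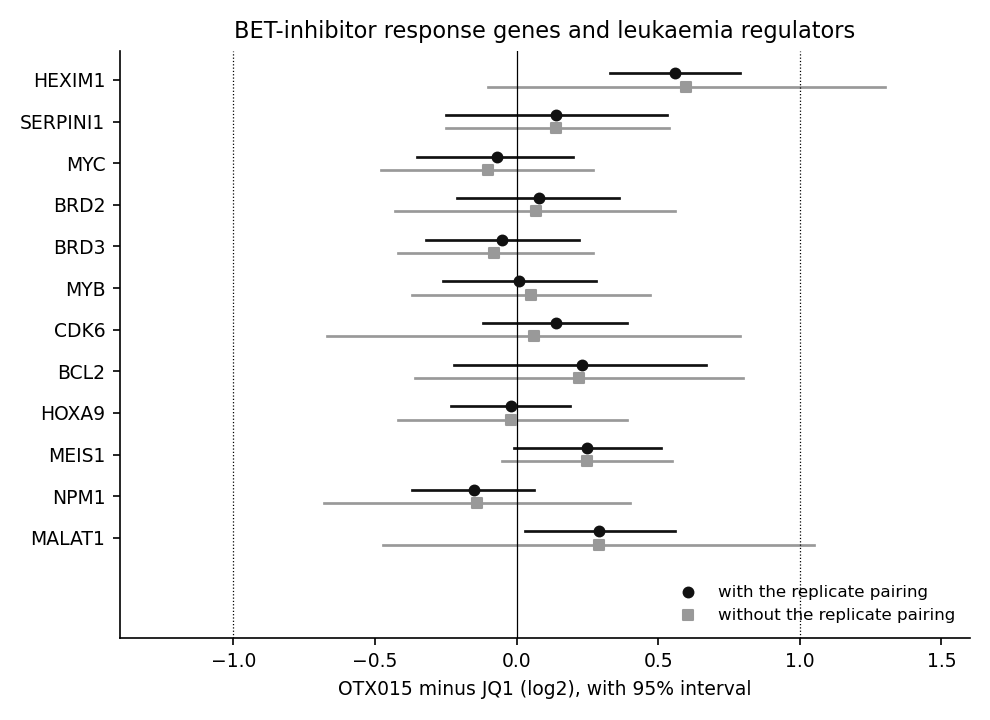
OTX015 minus JQ1 (log2, horizontal) with 95% intervals for 12 genes, from the paired fit (black circles) and the unpaired fit (grey squares); dotted lines mark 2-fold. HEXIM1 in the paired fit runs from 0.33 to 0.79, while the intervals of MYC, BRD2, BRD3, MYB and HOXA9 lie across 0 in both fits.

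Replication-dependent histone genes, which supply histones in S phase, held 7 of the 34 lower calls. In the paired fit 7 of 60 tested were lower and 0 higher with OTX015, against 0.361% and 0.223% of all genes tested. The unpaired median of the histone genes was −0.23, against 0.01 over all genes. Of the 60, 54 were below 0, against 4586 of all 9415 genes. The list median was 0.08 and 0.03 in AML2 pairs 1 and 2 and −0.48 to −0.29 in the other 4 pairs. The leading gene was HIST1H3C, an H3 gene whose start region is shown above, with tags almost wholly in AML2. There it had 1190, 1401 and 924 CPM with OTX015 against 3856, 3048 and 2948 CPM with JQ1, and 3786 to 5396 CPM with vehicle. All OTX015 libraries of AML2 lie below all its JQ1 libraries, and the highest JQ1 library lies above the lowest vehicle library. In AML3 no library exceeded 2.93 CPM. The difference in HIST1H3C was −1.47 (SE 0.16, adjusted p = 3.42e-10) in the paired fit and −1.36 (SE 0.34, 95% interval −2.08 to −0.65) in the unpaired fit. Against vehicle in AML2, HIST1H3C was lower with OTX015, at −1.94 ± 0.35 (SE) and an adjusted p of 9.67e-05. With JQ1 it differed from vehicle by −0.46 ± 0.34 (SE), which did not pass (adjusted p = 0.312).

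The other histone genes called differed less. HIST1H3F had 141, 133 and 107 CPM with OTX015 against 164, 152 and 148 CPM with JQ1 in AML2. In AML3 HIST1H3F had 1147, 1054 and 711 CPM with OTX015 against 1788, 1631 and 978 CPM with JQ1. It was lower in 6 of 6 pairs, without overlap in AML2, with a difference of −0.45 (SE 0.12, adjusted p = 0.041). HIST1H2AJ (−0.55), HIST1H2BM (−0.49), HIST2H3C (−0.45) and HIST1H1D (−0.44) were lower in 6 of 6 pairs too, and HIST1H3B (−0.74) in 4 of 6 pairs. Tags of near-identical histone copies can be assigned to the wrong gene, so the value of a single copy is uncertain.

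Cell cycle genes leaned the same way with few calls. CCNA2, the cyclin of S phase and G2, had 38.5, 38.7 and 23.2 CPM with OTX015 against 53.6, 51.1 and 63.5 CPM with JQ1 in AML2. In AML3 CCNA2 had 4.37, 8.76 and 8.61 CPM with OTX015 against 12.4, 12.7 and 27.1 CPM with JQ1. The groups do not overlap in either line, and CCNA2 was lower, with a difference of −0.75 (SE 0.20, adjusted p = 0.041) in the paired fit. ZWINT, a kinetochore protein gene, had 57.2, 57.1 and 71.6 CPM with OTX015 against 91.3, 95.2 and 65.3 CPM with JQ1 in AML2. In AML3 ZWINT had 12, 13.1 and 19.4 CPM with OTX015 against 31.1, 30.6 and 27.1 CPM with JQ1. It was lower in 5 of 6 pairs, with a difference of −0.66 (SE 0.16, adjusted p = 0.0239). CENPM, a centromere protein gene, was lower in 6 of 6 pairs, with a difference of −0.69 (SE 0.18, adjusted p = 0.041). Of 29 mitosis genes 1 was called lower, CCNA2, and of 32 S phase genes none was called, with medians of −0.18 and −0.22. ZWINT and CENPM are in neither list. The list medians were below 0 in 6 of 6 pairs, and 25 of the 29 and 28 of the 32 genes were below 0. Over all 9415 genes tested, 4586 were below 0, and 0.361% were called lower in the paired fit. NOP16, a nucleolar protein gene, was the 1 gene called among 36 MYC target and nucleolar genes, lower in 6 of 6 pairs with a difference of −0.61 (SE 0.15, adjusted p = 0.0392), and the list median was −0.10.

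**Figure D3:**
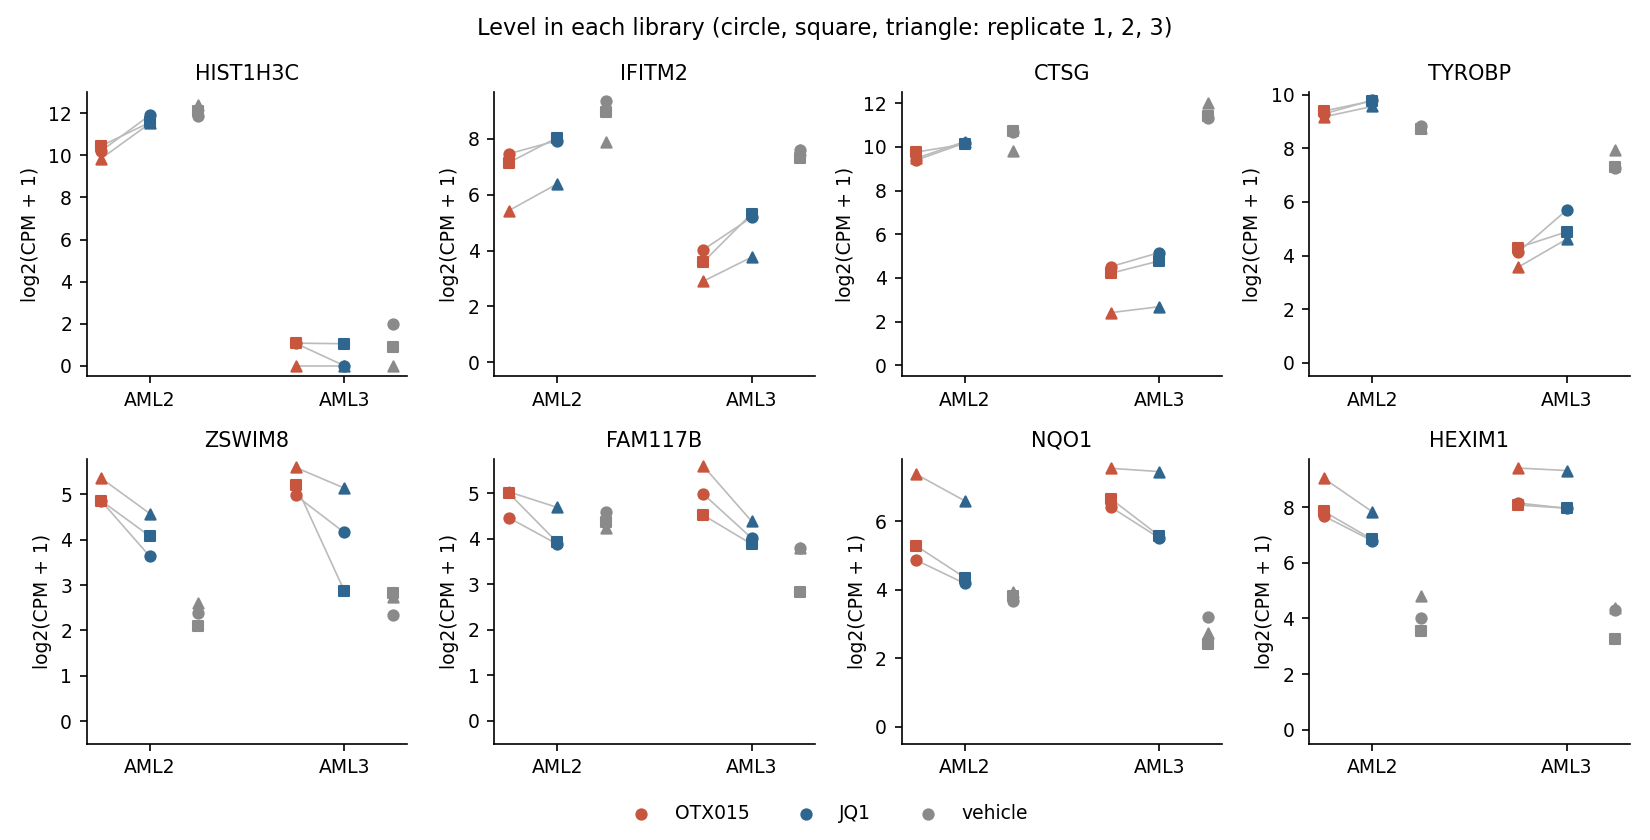
Level of 8 genes as log2(CPM + 1) in every library of AML2 and AML3 with OTX015 (red), JQ1 (blue) and vehicle (grey); grey lines join same-numbered OTX015 and JQ1 libraries. The lines run up towards JQ1 in 6 of 6 pairs for IFITM2, CTSG and TYROBP and down in 6 of 6 for ZSWIM8, FAM117B, NQO1 and HEXIM1, and HIST1H3C separates in AML2 and is near 0 in AML3.

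Genes of primary granules, the enzyme stores of neutrophil precursors, were lower with OTX015 for 5 of 7 tested in the paired fit, and 0 were higher. Over all genes tested, 0.361% were lower and 0.223% higher in that fit. The unpaired median of the granule genes was −0.54, and the list median was below 0 in 6 of 6 pairs. CTSG, the cathepsin G protease gene, had 671, 867 and 710 CPM with OTX015 against 1157, 1116 and 1212 CPM with JQ1 in AML2. In AML3 CTSG had 21.8, 17.5 and 4.31 CPM with OTX015 against 34.7, 26.4 and 5.41 CPM with JQ1. The groups do not overlap in AML2, and CTSG was lower in 6 of 6 pairs, with a difference of −0.63 (SE 0.13, adjusted p = 0.00818). In bulk libraries, fewer cells that express such genes and less RNA per cell cannot be told apart.

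ELANE, the neutrophil elastase gene, had few tags in AML2. In AML3 it had 57.9, 72.3 and 25.8 CPM with OTX015 against 141, 113 and 34.3 CPM with JQ1, and 325 to 537 CPM with vehicle, and was lower, with a difference of −0.88 (SE 0.18, adjusted p = 0.00818). AZU1, the gene of the antimicrobial protein azurocidin, had 177, 142 and 185 CPM with OTX015 against 226, 211 and 215 CPM with JQ1 in AML2. In AML3 AZU1 had 43.7, 59.1 and 60.3 CPM with OTX015 against 67.6, 101 and 106 CPM with JQ1. AZU1 did not overlap between the compounds in either line and was lower, with a difference of −0.51 (SE 0.12, adjusted p = 0.0192). The lysozyme gene LYZ was lower in 5 of 6 pairs, with a difference of −0.66 (SE 0.17, adjusted p = 0.0469), and SRGN, the granule proteoglycan gene, in 6 of 6 pairs, with a difference of −0.44 (SE 0.11, adjusted p = 0.041) that lost its call whichever pair was left out.

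At AZU1 in both lines and ELANE in AML3, all libraries of both compounds lay below the vehicle libraries. AZU1 in AML2 differed from vehicle by −2.89 ± 0.33 (SE) with OTX015 and −2.52 ± 0.32 (SE) with JQ1. AZU1 in AML3 differed by −2.90 ± 0.34 (SE) with OTX015 and −2.14 ± 0.33 (SE) with JQ1. ELANE in AML3 differed by −3.04 ± 0.41 (SE) with OTX015 and −2.17 ± 0.38 (SE) with JQ1. CTSG in AML2 had 907 to 1699 CPM with vehicle, a range that holds its JQ1 libraries. There it differed from vehicle by −0.92 ± 0.39 (SE) with OTX015 and −0.29 ± 0.38 (SE) with JQ1. Neither passed (adjusted p = 0.059 and 0.593). In AML3 CTSG had 2554 to 4190 CPM with vehicle, above all libraries of both compounds.

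Of 13 monocyte and macrophage genes 2 were called lower, LYZ and TYROBP, with a list median of −0.24, which was −0.04 in AML2 and −0.53 in AML3. Over all genes tested, 0.361% were called lower in the paired fit. TYROBP, the adaptor of activating receptors, had 621, 669 and 575 CPM with OTX015 against 883, 870 and 753 CPM with JQ1 in AML2. In AML3 TYROBP had 16.4, 18.6 and 10.8 CPM with OTX015 against 50.7, 28.5 and 23.4 CPM with JQ1. The groups do not overlap in either line, and TYROBP was lower, with a difference of −0.56 (SE 0.13, adjusted p = 0.0239). Vehicle lay at 423 to 460 CPM in AML2, below both compounds, and at 154 to 245 CPM in AML3, above both.

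IFITM2, an interferon-induced membrane protein gene, had 176, 141 and 42.1 CPM with OTX015 against 245, 264 and 82.9 CPM with JQ1 in AML2. In AML3 IFITM2 had 15.3, 11 and 6.46 CPM with OTX015 against 35.6, 39.1 and 12.6 CPM with JQ1. It was lower in 6 of 6 pairs, with a difference of −0.86 (SE 0.14, adjusted p = 9.96e-05), and close relatives can share its tags. DOK2, a docking protein gene, was lower without overlap in both lines, with a difference of −0.64 (SE 0.15, adjusted p = 0.0239). FCER1G (−0.47), AIF1 (−0.60), PLEK (−0.51) and LAT2 (−0.45), which serve receptor signalling or the cytoskeleton in myeloid cells, were also lower in 6 of 6 pairs. DHRS9, a retinol dehydrogenase gene all but absent from AML2, had 22.9, 17.5 and 6.46 CPM with OTX015 against 50.7, 66.6 and 18 CPM with JQ1 in AML3 and was lower, with a difference of −1.45 (SE 0.28, adjusted p = 0.00238). In the fit of all 18 libraries, which weights the lines equally, the difference in DHRS9 was 0.31, with 1 tag in AML2 with OTX015 against 0 with JQ1.

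Among the higher genes, ZSWIM8 had the largest estimate. It encodes the substrate receptor of a ubiquitin ligase that degrades Argonaute proteins held by certain microRNA targets. It had 28, 28.1 and 40 CPM with OTX015 against 11.4, 15.9 and 22.9 CPM with JQ1 in AML2. In AML3 ZSWIM8 had 30.6, 36.1 and 47.4 CPM with OTX015 against 16.9, 6.34 and 34.3 CPM with JQ1. The groups separate in AML2 and overlap in AML3, and vehicle was at 3.25 to 6.06 CPM. The difference in ZSWIM8 was 1.05 (SE 0.21, adjusted p = 0.00421) in the paired fit and 1.02 (SE 0.28, 95% interval 0.44 to 1.6) in the unpaired fit.

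FAM117B had 21, 31 and 31.6 CPM with OTX015 against 13.7, 14.1 and 24.7 CPM with JQ1 in AML2. In AML3 FAM117B had 30.6, 21.9 and 47.4 CPM with OTX015 against 15.1, 13.7 and 19.8 CPM with JQ1, which do not overlap. It was higher in 6 of 6 pairs, by 0.87 (SE 0.21, adjusted p = 0.0239). TUBE1, the epsilon tubulin gene, was higher in 6 of 6 pairs, by 0.71 (SE 0.18, adjusted p = 0.041), and lost its call whichever pair was left out. TAF1A, a subunit of the RNA polymerase I factor SL1, differed by 1.04 (SE 0.30, 95% interval 0.42 to 1.66) without overlap in either line, and was not called in either fit (paired adjusted p = 0.16).

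NQO1, a quinone reductase gene and standard target of the factor NRF2, had 28, 37.7 and 164 CPM with OTX015 against 17.1, 19.4 and 95.3 CPM with JQ1 in AML2. In AML3 NQO1 had 84.1, 99.7 and 185 CPM with OTX015 against 44.5, 46.5 and 173 CPM with JQ1. The libraries numbered 3 were the highest of each group, and NQO1 was higher in 6 of 6 pairs, by 0.72 (SE 0.14, adjusted p = 0.00238). It was the 1 gene called among 19 oxidative stress genes of NRF2, whose median was 0.13. It was also the 1 called among 6 aryl hydrocarbon and xenobiotic receptor genes, whose median was 0.18. Of all genes tested, 0.223% were called higher in the paired fit.

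SQSTM1, the autophagy receptor p62, was higher in 5 of 6 pairs, by 0.50 (SE 0.12, adjusted p = 0.0192). The stress gene GADD45B was higher in 6 of 6 pairs, by 0.53 (SE 0.13, adjusted p = 0.0239), and the pro-apoptotic BCL2 family gene PMAIP1 in 5 of 6 pairs, by 0.44 (SE 0.11, adjusted p = 0.041). By line, SQSTM1 differed by 0.77 in AML2 and 0.21 in AML3, GADD45B by 0.83 and 0.25, and PMAIP1 by 0.63 and 0.34. Over all 9415 genes tested, 4829 were above 0. Of 24 immediate early genes, which respond first to growth signals, none was called, 23 were above 0 and the median was 0.23. Over all genes tested, 0.223% were called higher and 0.361% lower in the paired fit, so a list of this size would mostly hold no call. Their member DUSP1, a phosphatase gene, had 14, 24.2 and 25.3 CPM with OTX015 against 7.99, 4.41 and 24.7 CPM with JQ1 in AML2 and 21.8, 35 and 60.3 CPM with OTX015 against 18.7, 24.3 and 30.7 CPM with JQ1 in AML3. These overlap in both lines, and the paired difference of 0.75 (SE 0.22, adjusted p = 0.0961) missed the threshold.

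NEAT1, the scaffold of paraspeckles, had 1895, 2195 and 5725 CPM with OTX015 against 1032, 1181 and 2694 CPM with JQ1 in AML2. In AML3 NEAT1 had 6598, 7287 and 15637 CPM with OTX015 against 5107, 5639 and 17459 CPM with JQ1, and vehicle libraries of both lines had 57.5 to 140 CPM. NEAT1 was higher with OTX015 in 5 of 6 pairs, by 0.58 (SE 0.13, adjusted p = 0.0182). MALAT1 was higher in 6 of 6 pairs, by 0.29 (SE 0.13, adjusted p = 0.401), which was not called. The 5 tested nuclear-retained long RNA genes had a median of 0.29. RNU7-1, the U7 small nuclear RNA that takes part in histone transcript processing, had 106, 136 and 105 CPM with OTX015 against 74.2, 77.6 and 61.7 CPM with JQ1 in AML2. In AML3 RNU7-1 had 53.5, 60.2 and 58.1 CPM with OTX015 against 43.6, 48.6 and 46.9 CPM with JQ1. Its groups do not overlap in either line, and it was higher by 0.55 (SE 0.13, adjusted p = 0.0239), with the caution that near-identical copies of U7 can share tags.

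Large housekeeping lists held no calls and leaned below 0, where 4586 of all 9415 genes tested lay. In the paired fit 0.223% of all genes tested were called higher and 0.361% lower, so few or no calls in a list say little about it. Genes of a list are not independent replicates, so these counts are a description. Of 84 cytosolic ribosomal protein genes 75 were below 0, with a median of −0.16, and of 78 oxidative phosphorylation genes 71 were below 0, with a median of −0.14. MHC class I genes (11 tested, median −0.18) had list medians below 0 in 6 of 6 pairs, and proteasome genes (37 tested, median −0.12) in 5 of 6. The 1 MHC class II gene tested, CD74, differed by −0.26 (SE 0.23, 95% interval −0.74 to 0.21). Lists with no call and a median near that of all genes were cholesterol synthesis (−0.01), the unfolded protein response (−0.04), glycolysis (−0.06), small nucleolar RNA hosts (−0.01), heat shock and chaperones (−0.09), ATF4 and amino acid stress (0.05) and interferon-stimulated genes (0.03). IFITM2, called lower above, is not among the 9 interferon-stimulated genes tested, whose median was −0.24 in AML2 and −0.03 in AML3. Lysosome and autophagy genes (0.03) held SQSTM1 and BCL2 family genes (median 0) held PMAIP1. The p53 targets (23 tested, median 0.15) and NF-kB pathway genes (20 tested, median 0.12) held no call. Metallothionein genes (6 tested) had a median of 0.60 in AML2 and −0.18 in AML3, with none called.

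Depth and MALAT1 moved with the compound. OTX015 libraries had a median of 789286 gene tags, against 935021 for JQ1 libraries. In each of the 6 pairs the OTX015 library had fewer gene tags and the higher MALAT1 level. The part of these in the paired calls and in the list medians was not tested. Scaling without composition factors moved the median of all genes to 0.05, and the medians of the cholesterol synthesis (0.02), unfolded protein response (0.01), small nucleolar RNA host (0.04) and BCL2 family (0.06) lists then lay above 0.

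**Figure D4:**
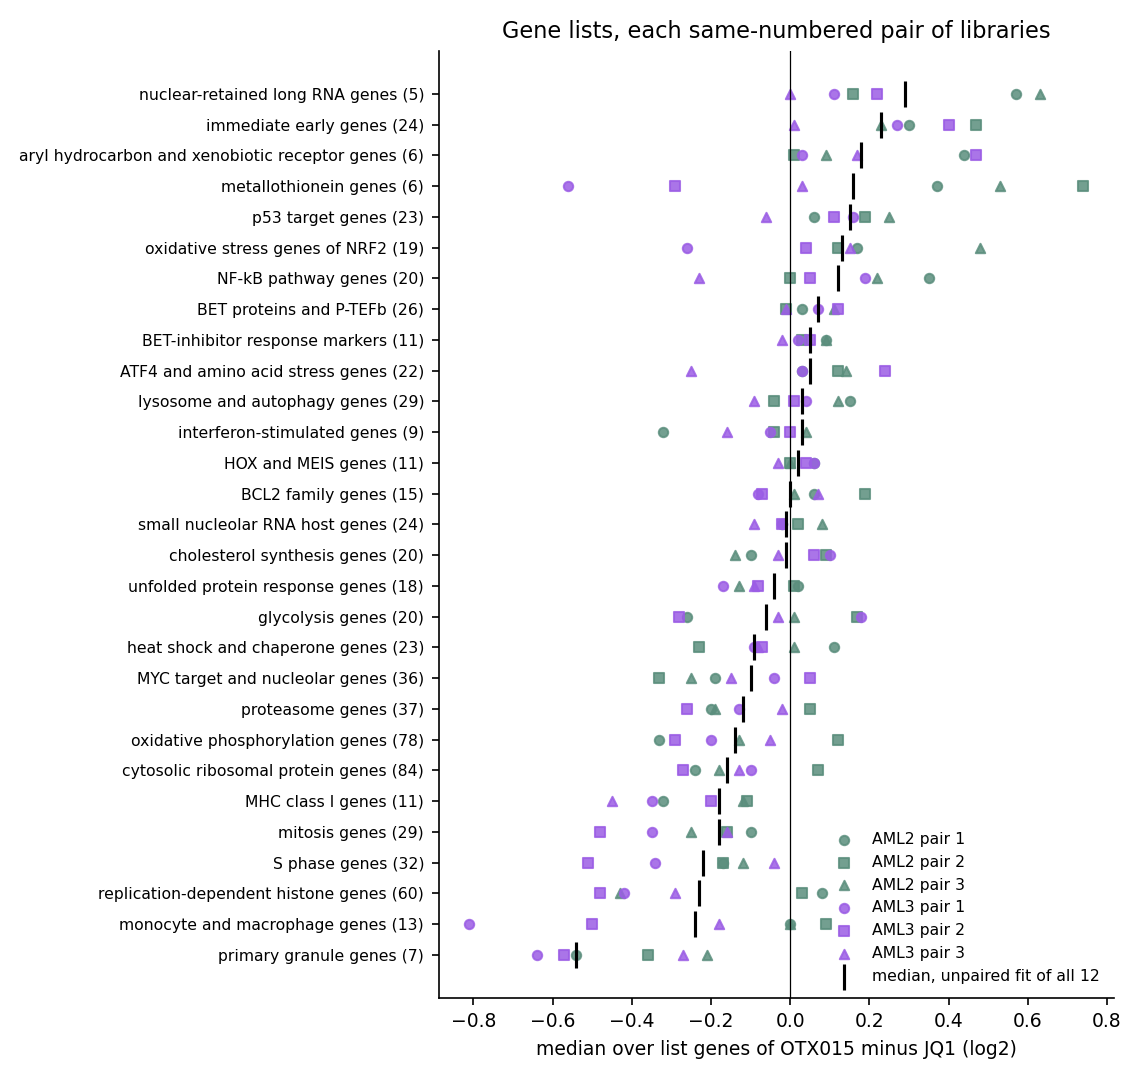
Median over the tested genes of each list of OTX015 minus JQ1 (log2, horizontal) in each of the 6 same-numbered pairs (AML2 green, AML3 purple; circle, square and triangle for pairs 1, 2 and 3) and, as a black bar, in the unpaired fit of all 12 libraries; genes tested are in brackets. Primary granule genes lie below 0 and immediate early genes above 0 in 6 of 6 pairs, and metallothionein genes fall on both sides of 0.

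The differences of the lines were weakly related across genes. Across the 9415 genes, OTX015 minus JQ1 in AML2 and in AML3 had a Pearson r of 0.09 and the same sign for 53.9%. Across the 2585 genes at a log2 CPM of 6 or more, r was 0.24 and the sign was the same for 60.2%. These are descriptions across genes, which are not independent replicates, and the lines share no library. The difference of a gene within a line had a median SE of 0.325 in AML2 and 0.324 in AML3. With such errors a low r cannot tell lines that differ from lines that are alike. The test of a line difference called 0 of 9415 genes (0%) and 0 of 11364 promoters (0%) with edgeR, and 0 of either with DESeq2. At an unadjusted p under 0.05 the AML3 difference was above the AML2 difference for 65 genes and below it for 110, and for 82 and 139 promoters. Of the 55 genes of the paired fit, 6 averaged under 5 CPM in 1 of the lines, so that the other line carried the call: RND3, DHRS9 and ELANE in AML2, and TSC22D1, HIST1H3C and KCNE5 in AML3.

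Promoters are single start regions, and a gene can have several. In the unpaired fit 0 of 11364 (0%) were called by edgeR, with 205 higher and 185 lower at an unadjusted p under 0.05, and DESeq2 called 1 lower. In the paired fit 16 were higher (0.141%) and 26 lower (0.229%) with OTX015. Of these, 10 could be matched to a gene by their counts, and all 10 genes were called themselves, which is nearly the same count rather than a further result. The 32 others are no independent set either, since several have nearly the tag counts of a gene already called. The smallest p among them was at hg19 chromosome 6, 26045603 to 26045639, plus strand, lower, with a difference of −1.48 (SE 0.17, adjusted p = 1.84e-09). It had 2896 tags over the OTX015 libraries, 8500 over the JQ1 libraries and 16744 over the vehicle libraries of AML2, and at most 6 per group in AML3. HIST1H3C had nearly the same counts, 2906, 8507 and 16756 in the same AML2 groups, so the call is not counted as a further result. A promoter at hg19 chromosome 2, 169926047 to 169926084, plus strand, had tags in AML3 alone, 36 over the OTX015 libraries, 112 over the JQ1 libraries and 448 over the vehicle libraries, and was lower, with a difference of −1.43 (SE 0.29, adjusted p = 0.0148). DHRS9 had 40, 130 and 513 tags in the same groups, and most of that count may be this promoter's. A promoter at hg19 chromosome 19, 3981345 to 3981396, plus strand, was higher in 6 of 6 pairs by 1.08 (SE 0.24, adjusted p = 0.0197). It had 93 tags over the OTX015 libraries against 40 over the JQ1 libraries in AML2, and 41 against 29 in AML3. Sites in hg19 were not annotated with genes here.

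Enhancers, which CAGE detects by short RNAs that start in both directions, gave few single calls. In the unpaired fit 0 of 687 (0%) were called by edgeR and 0 by DESeq2, with 17 higher and 4 lower by edgeR at an unadjusted p under 0.05. In the paired fit 2 were higher (0.291%) and 0 lower (0%), and none was called once AML2 pair 1 or 2 was left out. The first lies at chromosome 11, 123422692 to 123423015, read as GRCh38, and had 19, 21 and 4 tags with OTX015 against 6, 5 and 3 tags with JQ1 in AML2. In AML3 it had 16, 4 and 2 tags with OTX015 against 10, 4 and 0 tags with JQ1. It was higher by 1.37 (SE 0.32, adjusted p = 0.01). As CPM on the promoter library sizes the groups do not overlap in AML2, with 22.4, 20.5 and 8.52 with OTX015 against 6.88, 4.45 and 5.33 with JQ1, and they overlap in AML3.

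The second enhancer lies at hg19 chromosome 11, 65264635 to 65265953, around a promoter at 65265141 to 65265306 that was itself higher by 0.71 (SE 0.16, adjusted p = 0.021). It had 82, 84 and 31 tags with OTX015 against 42, 48 and 16 tags with JQ1 in AML2. In AML3 it had 64, 67 and 36 tags with OTX015 against 58, 38 and 33 tags with JQ1. It was higher by 0.79 (SE 0.20, adjusted p = 0.0274). The promoter had 145 tags over the OTX015 libraries against 83 over the JQ1 libraries in AML2, where the enhancer had 197 against 106. In AML3 the promoter had 117 against 95 tags and the enhancer 167 against 129. Most of the enhancer's count may be this promoter's, so the call is not counted as a further result. A site at hg19 chromosome 12, 104658660 to 104659046, had 2 tags over the OTX015 libraries against 11 over the JQ1 libraries in AML2, and 1 against 8 in AML3, and was not called in either fit (paired adjusted p = 0.525).

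As a whole, enhancers had 5.388, 4.839 and 6.4 tags per 1000 promoter tags with OTX015 against 4.797, 4.297 and 5.67 with JQ1 in AML2, where vehicle had 2.183 to 2.699. In AML3 they had 8.793, 8.811 and 14.216 with OTX015 against 7.339, 7.113 and 14.057 with JQ1, where vehicle had 2.871 to 3.319. OTX015 was higher in 6 of 6 pairs, by 0.862 on average, while the groups overlap in both lines and the libraries numbered 3 of AML3 stand apart in both groups. Exchanging labels within each line did not separate the compounds (exact permutation test, two-sided, p = 0.435). Exchanging them within pairs gave p = 0.0312 (exact permutation test, two-sided), the smallest that 6 pairs allow. Without AML3 OTX015 replicate 3 the difference of means was −0.0401.

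**Figure D5:**
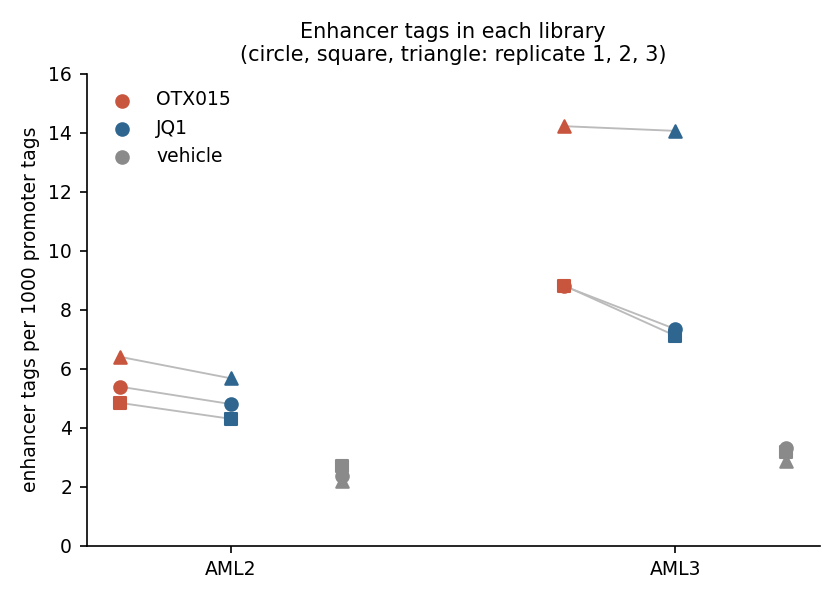
Enhancer tags per 1000 promoter tags (vertical) in every library of AML2 and AML3 with OTX015 (red), JQ1 (blue) and vehicle (grey); grey lines join same-numbered libraries. The lines of all 6 pairs run down from OTX015 to JQ1, and AML3 replicate 3 lies apart at 14.216 with OTX015 and 14.057 with JQ1.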

How the data were processed

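CAGE libraries from total RNA were analysed from the deposited counts, whole numbers of tags per gene, promoter and enhancer that the authors left unnormalized. Per the submitters' processing notes, STAR and hg38 were used, with versions, tag clustering and counting not given in the sources used here. Promoter names carry mostly hg19 coordinates, printed as deposited. Enhancers without a build were read as GRCh38, since 37.4% had a GRCh38 gene start within 2000 bases, against 22.3% after a shift of 50000 bases. Start sequences came from RefSeq (GRCh38.p14), matched by symbol; ELANE and IFITM2 had no entry.

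The 12 OTX015 and JQ1 libraries were fitted with edgeR 4.0.16 (R 4.3.3): TMM, filterByExpr, terms for line and compound, two-sided quasi-likelihood test and Benjamini-Hochberg adjustment (9 residual degrees of freedom). Enhancers needed at least 3 tags in at least 3 libraries and used promoter library sizes. Differences to vehicle came from a fit of all 18 libraries. Deviations from the group means correlated between same-numbered OTX015 and JQ1 libraries by 0.129, 0.17 and 0.371 in AML2 and 0.399, 0.372 and 0.65 in AML3, all over 0.1. Libraries numbered 1 and 2 correlated as well across numbers (0.157 and 0.199 in AML2, 0.389 and 0.403 in AML3), and libraries numbered 3 correlated negatively with both. The paired fit has a block per pair within line (5 residual degrees of freedom); the labels do not say what a number marks. No libraries were duplicates (chi-square per degree of freedom 1.91 to 11.9). The unpaired fits of genes and promoters were tested on simulated counts, and the paired fit and the enhancer fit were not. Alternatives were DESeq2 1.42.0, RLE or no composition factors, no filter, each line alone, all 18 libraries, replicates 1 and 2, and each library or pair left out. DESeq2 with the block, the block on replicates 1 and 2 and the left-out pairs were chosen after seeing the data.

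Genes named were the 5 with the smallest p each way, up to 2 per list and 15 set genes, to which those of the paired fit were added. Members and lists were chosen with earlier results of these data known, so no list was tested.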

Additional observations from a re-analysis of the deposited data

How the results depend on the processing

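In the unpaired fit the count of genes called stayed at 0 with RLE factors, no composition factors, no filter, all 18 libraries, either line alone and each library left out in turn (0 to 0 for genes, promoters, enhancers and both line differences). It was 14 with replicates 1 and 2 alone and 1 with DESeq2. The replicate block gave 55 genes within line and 3 when shared across lines (HIST1H3C, IFITM2 and DHRS9), 11 within line on replicates 1 and 2, and 30 with DESeq2, which gave no adjusted p for 38 of the 55 and called 16 of them. Without AML2 pair 1, 2 or 3 it gave 10, 87 and 15 genes, and without AML3 pair 1, 2 or 3 it gave 47, 4 and 18.

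For promoters, DESeq2 called 1, replicates 1 and 2 alone 11, the replicate block within line 42, the shared block 1, the block on replicates 1 and 2 13, and DESeq2 with the block 24. Without AML2 pair 1, 2 or 3 the block gave 6, 30 and 19 promoters, and without AML3 pair 1, 2 or 3 it gave 30, 10 and 24. For enhancers, replicates 1 and 2 alone gave 2, the block within line 2 and the shared block 2. The block on replicates 1 and 2 gave 1, and DESeq2 with the block 1. Without AML2 pair 1, 2 or 3 the block within line gave 0, 0 and 1 enhancers. Without AML3 pair 1, 2 or 3 it gave 3, 1 and 2. The line difference of genes had 1 call on replicates 1 and 2 and 0 with the block. The enhancer share differed by 0.862 with the replicate block (exact permutation p = 0.0312) and ranged from −0.0401 to 2 with each library left out. Enhancers with at least 5 tags (371 tested), or scaled by their own table, also gave 0 calls.

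Signs turned round for some genes, among them DHRS9 and TSC22D1, which the paired fit called; the cause was not tested. With each library left out, the log2 difference ranged from −0.10 to 0.20 for BRD2, −0.14 to 0.01 for BRD3, −0.31 to 0.49 for CDK6, −0.10 to 0.07 for HOXA9, −0.12 to 0.15 for MYB and −0.26 to 0 for MYC. BRD3 was 0.09 in AML2 alone and 0.01 on replicates 1 and 2, with and without the replicate block. CDK6 was −0.06 in AML2 alone, STARD4 −0.12 and MYB −0.02. MYC was 0.16 and SERPINI1 −0.02 in AML3 alone. MYC was 0.05 on replicates 1 and 2, 0.04 there with the block and 0.03 with the block without AML2 pair 2. MYB was −0.18 on replicates 1 and 2, −0.17 there with the block, and −0.08, −0.04 and −0.05 with the block without AML2 pair 3, AML3 pair 2 and AML3 pair 3. HOXA9 was 0.04 without composition factors and 0.02 with the block without AML2 pair 2, and EDEM1 0.03 with the block without AML3 pair 1. In the fit of all 18 libraries, which weights the lines equally, DHRS9 was 0.31, HOXA7 −0.21 and TSC22D1 −0.60, genes with almost no tags in 1 line. At this depth the median 95% interval of a gene reached 0.48 log2 units either side unpaired and 0.36 paired. That of an enhancer reached 1.18 and 1.09. For many genes and enhancers smaller differences could thus be missed.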

Other observations

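BCL2L1, a survival gene of the BCL2 family, had 9.34, 6.77 and 4.21 CPM with OTX015 against 14.8, 13.2 and 19.4 CPM with JQ1 in AML2. In AML3 BCL2L1 had 12, 7.67 and 10.8 CPM with OTX015 against 15.1, 16.9 and 9.02 CPM with JQ1. The groups separate in AML2 alone, and the paired difference of −0.77 (SE 0.30, adjusted p = 0.294) was not called. SESN2, a stress-induced inhibitor of growth signalling, had 25.7, 12.6 and 14.7 CPM with OTX015 against 6.85, 11.5 and 10.6 CPM with JQ1 in AML2. In AML3 SESN2 had 27.3, 35 and 32.3 CPM with OTX015 against 24.9, 22.2 and 18 CPM with JQ1. Its groups do not overlap in either line, and the paired difference of 0.62 (SE 0.22, adjusted p = 0.254) was not called. NFKB2, a subunit of the factor NF-kB, differed by 0.58 (SE 0.18, adjusted p = 0.138) and was higher with OTX015 in 5 of 6 pairs.

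ACTB, the beta actin gene often used as a constant standard, was lower with OTX015 in 6 of 6 pairs, with a difference of −0.53 (SE 0.12, adjusted p = 0.0182) in the paired fit. It had 4698, 6325 and 6428 CPM with OTX015 against 7883, 10374 and 8850 CPM with JQ1 in AML2, where vehicle had 6195 to 7453 CPM. In AML3 ACTB had 2021, 1877 and 1120 CPM with OTX015 against 2510, 2773 and 1484 CPM with JQ1, where vehicle had 5784 to 6157 CPM. Pseudogenes of actin can share its tags. KCNE5, a potassium channel subunit gene with tags in AML2 alone, had 91.1, 104 and 54.7 CPM with OTX015 against 155, 140 and 115 CPM with JQ1 there and was lower, with a difference of −0.68 (SE 0.16, adjusted p = 0.0239).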
